A study of Homo sapiens with 3 samples.

Results

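Among the 3795 cells kept from the day 23 library of a human melanocyte differentiation, 110 cells (2.90%, exact binomial 95% interval 2.39% to 3.48%) carried high levels of HES6 and DLL3 and few or no pigment transcripts. They are here called HES6/DLL3-high cells. In the study, human pluripotent stem cells were aggregated. The aggregates were moved to a medium with Wnt3a-conditioned medium, stem cell factor, endothelin-3, bFGF, dexamethasone, cholera toxin and a phorbol ester. Later they were plated on fibronectin, and the cells were dissociated and passaged in this medium with serum added and the phorbol ester left out. Droplet libraries were made at day 23 (D23), day 32 (D32) and day 44 (D44), with 1 library each. The D32 and D44 cells shared an induction and a sequencing run, whereas D23 had its own of both, so the day, the induction and the run cannot be told apart between D23 and the later libraries. The labels conflict on the starting cells: H9, an embryonic line, stands in the source, tissue and cell line entries, but the titles and the design text say induced pluripotent cells. All cells are labelled melanocytes, the labels name no mutation or second treatment, and the cells grew in culture with no tissue around them.

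The rule used UMIs (unique molecular identifiers, each marking 1 captured RNA molecule) per 10000 UMIs of a cell. A HES6/DLL3-high cell had a HES6 plus DLL3 sum of at least 10, a sum of PMEL, MLANA, DCT and TYRP1 under 5, and more of NEFM, MSX2, ZIC1, ZIC2, CRABP1, HES6 and DLL3 together than of the collagen and matrix genes COL5A1, COL6A3, LUM, PRRX1, THBS1 and TGFBI. The remaining 3685 kept D23 cells were 145 cells that met the HES6 and DLL3 minimum but were over the melanocyte limit, 637 NEFM/MSX2 cells (the neural sum above the collagen sum, HES6 plus DLL3 under 10), 346 collagen cells and 2557 pigment cells. Just inside the HES6 plus DLL3 minimum lay cells at 10.4, 10.5 and 10.7, and just outside it, under the melanocyte limit, cells at 6.97, 6.53 and 5.32. Few cells stood near this limit, with 8 HES6/DLL3-high cells under 20 and 3 NEFM/MSX2 cells between 5 and 10. The melanocyte limit was different: the nearest cells lay at 4.98 inside and 5.01 outside, and 85 of the 145 cells outside were under 10. The 145 cells had a median HES6 plus DLL3 sum of 70.6, against 73.2 in the 110 cells, and a median depth of 5373 UMIs, against 5501. The limit on pigment transcripts therefore cut through a run of cells with like values of the other measures. Ratios are given below over all other kept cells, the 145 cells included, and over the NEFM/MSX2 cells. Leaving the 145 cells out of the rest moved the log2 ratio of 34 of 126 named genes beyond its counting interval, and each of the 107 past 2-fold stayed past it.

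**Figure D1:**
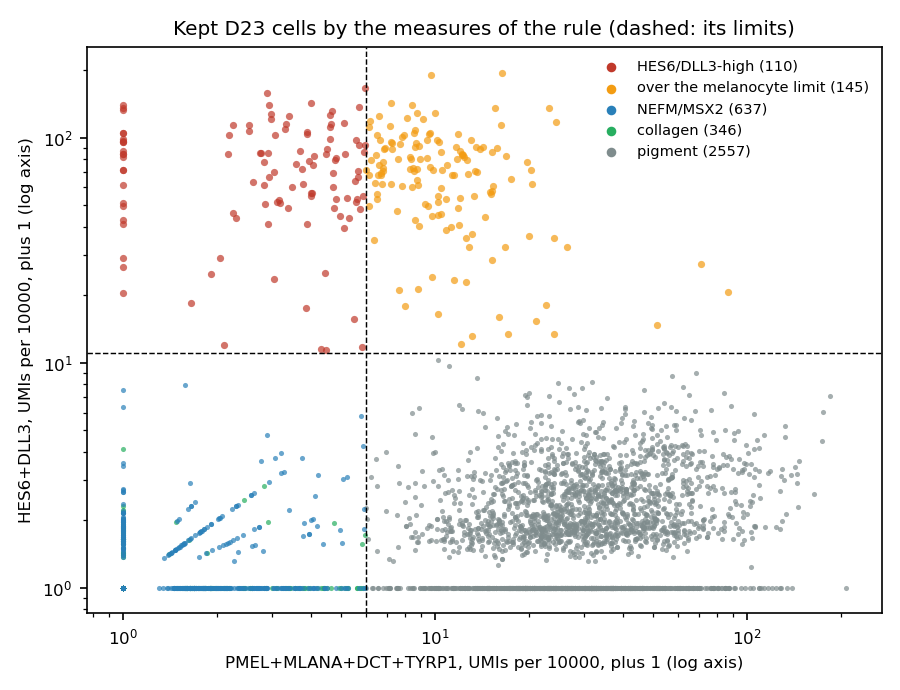
Each point is a kept D23 cell, with the melanocyte sum (x) against the HES6 plus DLL3 sum (y), both in UMIs per 10000 plus 1 on log axes, and dashed lines at the limits of 5 and 10. The 110 HES6/DLL3-high cells (upper left) stand apart from the cells below the horizontal line, while the 145 cells to their right continue the same cloud across the vertical line.

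In the embryonic neural tube, dividing progenitors give rise to neurons, and Notch signalling between neighbours sets how many do so at a time. Proneural transcription factors such as ATOH1 switch on Notch ligands, HES6, INSM1 and cell cycle exit genes in the cell that will become a neuron, and HES1 and HES5 hold its neighbours back as progenitors. HES6 counteracts HES1, and DLL3 is a Notch ligand that damps the pathway inside the cell that makes it.

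To show the sequence upstream of genes that mark these cells, the bases before the start of HES6 (the gene of the rule), GADD45G (the highest ratio over all other kept cells) and ATOH1 (the proneural factor of these cells) are printed from RefSeq on GRCh38.p14, 5′ to 3′ on the gene's strand, with CAGCTG in capitals. CAGCTG is an E-box, the type of site that proneural factors bind, and is its own reverse complement. The HES6 window is chr2:238240039-238240288 on the minus strand, the GADD45G window chr9:89604762-89605011 on the plus strand and the ATOH1 window chr4:93828503-93828752 on the plus strand. Starts are those of RefSeq: in GENCODE the HES6 gene on the minus strand reaches up to base 238240662, so the HES6 window lies inside that longer gene model.

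HES6: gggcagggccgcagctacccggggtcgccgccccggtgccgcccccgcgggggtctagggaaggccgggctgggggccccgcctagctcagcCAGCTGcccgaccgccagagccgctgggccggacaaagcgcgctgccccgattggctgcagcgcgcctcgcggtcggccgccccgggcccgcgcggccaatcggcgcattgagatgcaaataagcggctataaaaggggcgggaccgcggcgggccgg
GADD45G: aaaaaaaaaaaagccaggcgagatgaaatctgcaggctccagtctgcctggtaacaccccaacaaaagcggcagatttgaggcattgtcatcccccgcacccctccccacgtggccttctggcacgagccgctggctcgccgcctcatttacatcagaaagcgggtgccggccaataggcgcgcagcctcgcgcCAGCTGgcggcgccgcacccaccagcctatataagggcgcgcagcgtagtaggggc
ATOH1: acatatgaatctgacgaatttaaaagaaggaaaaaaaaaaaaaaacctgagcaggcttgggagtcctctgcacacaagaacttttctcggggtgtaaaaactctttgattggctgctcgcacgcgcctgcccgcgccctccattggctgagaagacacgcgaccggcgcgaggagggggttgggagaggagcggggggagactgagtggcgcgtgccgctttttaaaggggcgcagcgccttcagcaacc

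HES6 holds the motif with its outermost base 158 bases before the RefSeq start and GADD45G 56 bases before it, and the ATOH1 window holds neither CAGCTG nor CAGATG (searched on both strands). Of the 20 genes with the highest ratio over other kept cells, 15 matched the RefSeq table, and 5 of the 15 had CAGCTG in the 250 bases before a start (GADD45G, HES6, MIAT, SHD and TAGLN3). CAGCTG occurred in 14.0% of all 35116 promoter windows of that length. CAGATG occurred in 2 of the 15 genes (MIAT and TAGLN3) and in 12.2% of all windows. The 15 genes had 17 windows, and a gene counted if any of its windows held the motif. The shares of all windows are per window, so they are not in the same unit as the counts of genes. These matches describe letters only.

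D23 held 5585 barcodes with 53298735 UMIs, and kept cells had a median of 12574 UMIs. The HES6/DLL3-high cells were shallower, with 2153 to 18118 UMIs (median 5501) and a median of 2210 genes, against medians of 14264 UMIs in the NEFM/MSX2 cells and 12722 in the pigment cells. Mitochondrial genes took a median of 3.18% of UMIs, against 4.06% and 4.20% in those groups. Of 170 D23 cells marked by the Scrublet doublet score, 1 was a HES6/DLL3-high cell and 7 were among the 145 cells over the melanocyte limit. D23 shared 16 barcodes with D32 and 9 with D44, and 1 HES6/DLL3-high cell had a barcode that also occurs in D44. The 110 cells held 691881 UMIs in all. Levels below are CPM (UMIs per 1000000 UMIs of a summed group) with exact Poisson 95% intervals, which cover counting error only, and a count of 0 in the 110 cells allows up to 4.34 CPM (3 UMIs).

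Neurogenic markers that the rule did not use were INSM1, DCX and ELAVL4. They were chosen with earlier results of these data known, so their levels are a description and no independent check of the label. INSM1, a zinc finger factor of newly formed neurons and neuroendocrine cells (chromosome 20, 20368104 to 20370949, GRCh38), stood at 549 CPM (495 to 607) in HES6/DLL3-high cells, against 3.68 CPM in NEFM/MSX2 cells and 0.609 CPM in pigment cells. DCX, the microtubule protein of migrating young neurons, stood at 476 CPM (426 to 530), against 6.42 CPM and 1.97 CPM in those groups. ELAVL4, a neuronal RNA-binding protein, stood at 147 CPM (120 to 179), against 0.736 CPM and 0.812 CPM. All 3 were therefore far above their levels in NEFM/MSX2 cells and pigment cells. They did not set the HES6/DLL3-high cells above the cells that met the HES6 and DLL3 minimum but were over the melanocyte limit. In those cells INSM1, DCX and ELAVL4 were higher, at 642, 756 and 214 CPM. Within the HES6/DLL3-high cells, all 5 markers HES6, DLL3, INSM1, DCX and ELAVL4 had a UMI in 43 cells. Another 43 cells had 4 of them, 16 had 3, 7 had 2 and 1 had 1.

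Because the cells differed in depth, each was thinned to 3000 UMIs, which left 108 HES6/DLL3-high, 635 NEFM/MSX2 and 2537 pigment cells (2, 2 and 20 were too shallow). INSM1 then had a UMI in 74.1% of the HES6/DLL3-high cells (64.8% to 82.0%), against 2.05% of NEFM/MSX2 cells and 0.276% of pigment cells. ATOH1 had one in 61.1% (51.3% to 70.3%), against 0.472% and 0.0788%. At equal depth both genes were thus seen in a far larger share of HES6/DLL3-high cells than of those groups. How much free RNA in the droplets added to these shares was not tested. Without thinning, 95 of the 110 cells had a UMI of INSM1 and 90 had one of ATOH1.

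The neural tube markers were mixed, some high and some at or near 0. SOX2, a factor of neural progenitors, stood at 324 CPM (283 to 369) in HES6/DLL3-high cells, against 67.1 CPM in NEFM/MSX2 cells and 7.80 CPM in pigment cells. POU3F2, a neural POU factor, stood at 493 CPM (442 to 548), against 58.6 CPM and 1.74 CPM. SOX1 had 34.7 CPM (22.2 to 51.6) and PAX6, a factor of ventricular zone progenitors, only 10.1 CPM (4.07 to 20.8, 7 UMIs). SOX3 had no UMI and FABP7, a radial glia lipid carrier, had 1. Of 28 neural tube progenitor factors 20 reached 10 CPM. Of these, 15 were higher and 3 (VIM, HMGA2 and SOX9) lower than in other kept cells. Over all genes 14.6% were higher and 17.4% lower. By summed level the list had 4118 CPM in HES6/DLL3-high cells and 3846 CPM in pigment cells, but 5100 CPM in NEFM/MSX2 cells and 6091 CPM in collagen cells. Markers of peripheral sensory or autonomic neurons were near 0, with 4 UMIs of POU4F1, 2 of PRPH and none of ISL1. Markers of other cell types were absent in part. No UMI fell on POU5F1 and NANOG (pluripotency), MYOD1, MYOG and MYF5 (muscle), PECAM1 (endothelium), or GFAP, AQP4 and OLIG1 (glia), and PTPRC (blood) had 1 UMI. Other genes of the same lists had UMIs. DNMT3B, a DNA methyltransferase on the pluripotency list, had 18.8 CPM, against 9.04 CPM in NEFM/MSX2 cells, and DES, the desmin of muscle, 23.1 CPM, against 3.05 CPM. CDH5, the cadherin of endothelium, had 5 UMIs (7.23 CPM, against 0.631 CPM). S100B, of glia and melanocytes, had 27 UMIs in 15.5% of the HES6/DLL3-high cells, and 64.7 CPM in NEFM/MSX2 cells and 493 CPM in pigment cells, with a log2 ratio of -0.71 over NEFM/MSX2 cells. KRT20, POU4F3 and GFI1, which accompany ATOH1 in Merkel cells or inner ear hair cells, had none either.

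In the comparison across all genes, 9837 genes reached 10 CPM in the HES6/DLL3-high cells or in the other kept cells, and 14.6% of them were at least 2-fold higher and 17.4% at least 2-fold lower in the HES6/DLL3-high cells (1 CPM added to each level). The median log2 ratio was -0.05. Against the NEFM/MSX2 cells, 14.7% of 9774 genes were higher and 15.4% lower, with a median of 0.01. Because the cells were picked by expression and D23 is 1 library, every ratio is a description without a test, and a listed gene that reached 10 CPM only in the HES6/DLL3-high cells had to come out higher.

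The 20 genes with the highest ratio (at 50 CPM or more) were GADD45G, ATOH1, INSM1, CHGA, CLDN5, OLIG3, DLL3, PANTR1, MIAT, RASD1, TAGLN3, EBF3, NFASC, SSTR2, HES6, SHD, CRABP1, IGFBPL1, ELAVL3 and AC015845.2. GADD45G, a growth arrest gene of new neurons, had 744 CPM (681 to 812) in HES6/DLL3-high cells and 11.1 CPM in other kept cells, a 66.9-fold ratio (59.2 to 75.6). ATOH1, the proneural factor of the hindbrain's dorsal edge (chromosome 4, 93828753 to 93830964), had 410 CPM (364 to 461) and 6.84 CPM, a 60.1-fold ratio (51.1 to 70.5). Most of the ATOH1 in the other cells lay in the 145 cells over the melanocyte limit, which had 362 CPM, against 1.47 CPM in NEFM/MSX2 cells, 0.145 CPM in pigment cells and 0 UMIs in collagen cells. Without the 145 cells in the rest, its log2 ratio was 8.21, against 5.71 with them. The order changed as well: CLDN5 and INSM1 then had log2 ratios of 8.15 and 7.99, and GADD45G one of 7.23 with 3.98 CPM in the rest.

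CHGA, the chromogranin of secretory granules, had 264 CPM (228 to 306) in HES6/DLL3-high cells, against 0.421 CPM in NEFM/MSX2 cells. SSTR2, a somatostatin receptor, had 548 CPM (494 to 606), against 2.94 CPM. CLDN5, a tight junction protein best known from brain endothelium, had 400 CPM (355 to 450), against 1.16 CPM, in cells with no UMI of PECAM1. These genes span secretion, peptide signalling and junctions. TAGLN3, a neuronal actin-binding protein, had 1181 CPM, against 21.9 CPM, and the long noncoding RNAs PANTR1 and MIAT had 587 CPM and 418 CPM, against 22.3 CPM and 5.99 CPM. CRABP1, the cytoplasmic carrier of retinoic acid, took 38215 CPM of the UMIs in HES6/DLL3-high cells, against 2116 CPM in NEFM/MSX2 cells and 124 CPM in pigment cells, and it is 1 of the genes the rule summed.

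**Figure D2:**
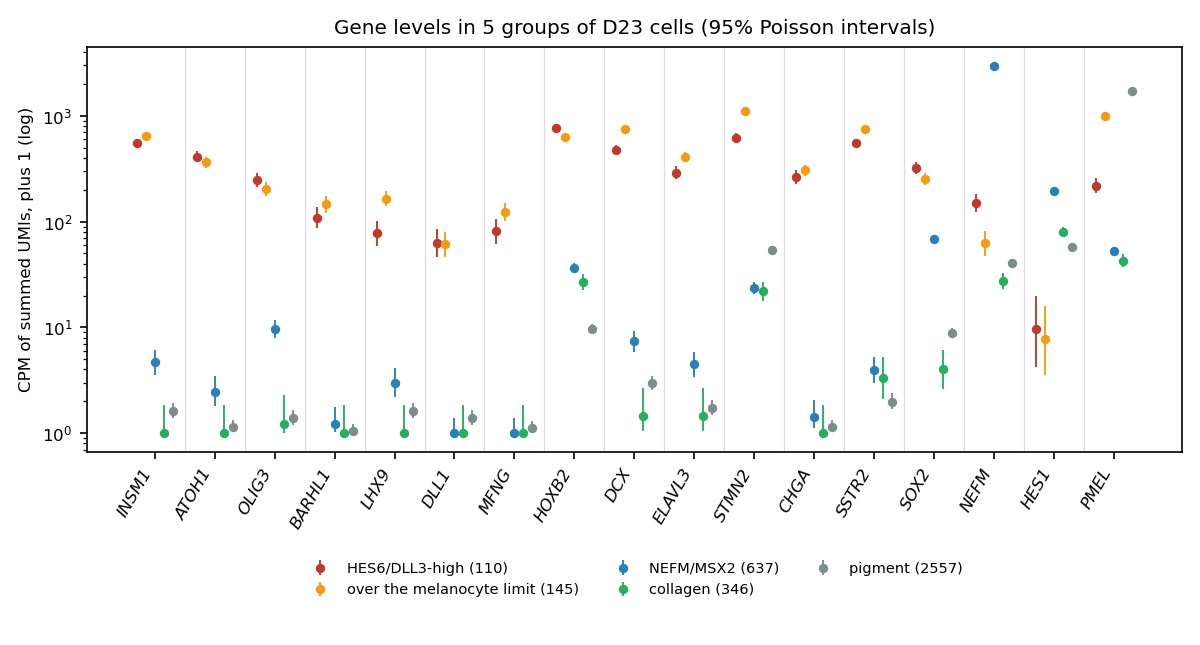
CPM plus 1 on a log axis for 17 genes in 5 groups of D23 cells, with exact Poisson 95% intervals and the number of cells in the legend. The HES6/DLL3-high cells and the 145 cells over the melanocyte limit lie together and above the other groups for INSM1 to SOX2, below NEFM/MSX2 cells for NEFM and below all 3 other groups for HES1.

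Of 39 proneural factors and their early targets, 27 reached 10 CPM. In HES6/DLL3-high cells 26 of the 27 were higher than in other kept cells and none lower, with a median log2 ratio of 4.13, against -0.05 over all genes. HES6, by which the cells were picked, is 1 of the 26, and without it 25 of 26 were higher, with a median of 4.12. NEUROG1 and NEUROG2, which drive other neuron classes, had no UMI, and NEUROD1 had 4.

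Downstream factors followed in part of the cells. NHLH1 and NHLH2, helix-loop-helix factors of young neurons, had 79.5 CPM and 49.1 CPM, against 0.736 CPM and 2.31 CPM in NEFM/MSX2 cells, and NEUROD4 had 24.6 CPM, against 0.105 CPM. EBF3 and EBF2, factors of neuronal migration and differentiation, had 202 CPM and 66.5 CPM, against 1.26 CPM and 0 UMIs. The SOXC factors SOX11 and SOX4, which switch on neuronal genes, were broad, at 4580 CPM and 1620 CPM, against 314 CPM and 412 CPM. SOX11 had a UMI in every HES6/DLL3-high cell.

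Of 26 Notch ligands, receptors and targets, 18 reached 10 CPM, 10 were higher and 2 lower, with a median log2 ratio of 1.34. DLL3, by which the cells were picked, is 1 of the 10, and without it 9 of 17 were higher, with a median of 1.25. Among the ligands, DLL1, which activates Notch in neighbouring cells, had 62.1 CPM (45.0 to 83.7) in HES6/DLL3-high cells and 1.34 CPM in other kept cells, and no UMI in NEFM/MSX2 cells, so it was at least 197-fold higher than the limit of 3 UMIs there. Without the 145 cells DLL1 had 0.269 CPM in the rest. JAG1, a ligand of the Jagged type, had 34.7 CPM, against 29.8 CPM, and was within 2-fold. MFNG, a sugar transferase that modifies Notch, had 80.9 CPM (61.1 to 105), against 2.26 CPM (0.0829 CPM without the 145 cells), and LFNG had 31.8 CPM, against 2.44 CPM. DLL1 and both Fringe genes were thus higher by more than 2-fold, and JAG1 was not.

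The receptors and targets went different ways. NOTCH1 had 49.1 CPM in HES6/DLL3-high cells, against 17.6 CPM in other kept cells, while NOTCH2 had 8.67 CPM, against 60.5 CPM. HES1, the repressor that keeps cells in the progenitor state, had 6 UMIs in 6 cells, 8.67 CPM (3.18 to 18.9), against 83.6 CPM in other kept cells and 192 CPM in NEFM/MSX2 cells. HES5, the other main Notch target of the neural tube, had 21.7 CPM, against 0.529 CPM, but its 15 UMIs lay in 4 cells. HES4 had 124 CPM, against 33.3 CPM.

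**Figure D3:**
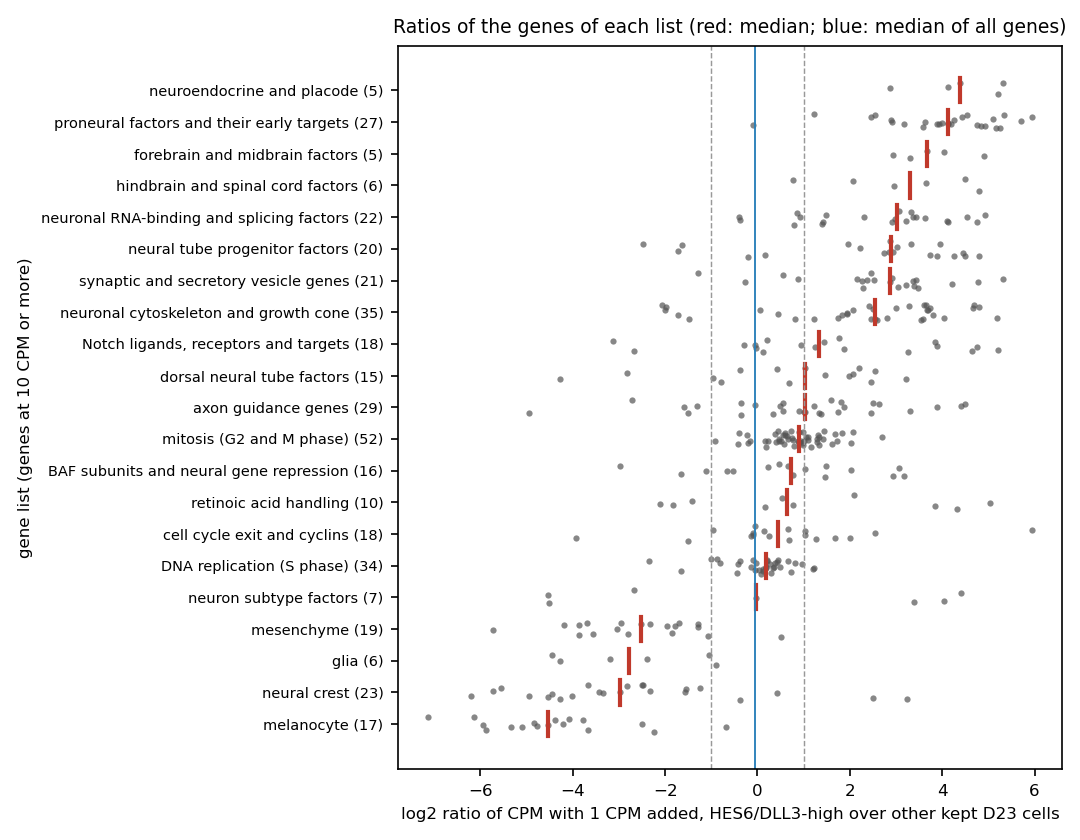
Each grey point is a gene of a list that reached 10 CPM, placed by its log2 ratio of CPM (1 CPM added), HES6/DLL3-high over other kept D23 cells, with the list's median in red, the median of all 9837 genes in blue and dashed lines at 2-fold. The rule used HES6 (proneural list), NEFM (neuronal list), MSX2 (neural crest list), 4 melanocyte genes and 6 mesenchyme genes. It also used DLL3 (Notch and neuroendocrine lists), CRABP1 (retinoic acid list), and MSX2, ZIC1 and ZIC2 (dorsal list). Without these genes the medians of the proneural, neuronal, melanocyte, neural crest and mesenchyme lists were 4.12, 2.57, -4.39, -3.16 and -1.95. Proneural, neuronal cytoskeleton and neural tube progenitor lists lie to the right of the blue line (medians 4.13, 2.54 and 2.90). Melanocyte, neural crest and mesenchyme lists lie to its left (medians -4.54, -2.98 and -2.53).

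Position in the neural tube is recorded by regional transcription factors. HOX genes of the hindbrain were among the higher ones: HOXB2 had 763 CPM (699 to 831) in HES6/DLL3-high cells and 35.7 CPM in NEFM/MSX2 cells, and a UMI in 103 of 110 cells. HOXA2 had 129 CPM, against 8.94 CPM, HOXA3 had 140 CPM, against 27.6 CPM, and HOXB3 had 70.8 CPM, against 23.5 CPM. HOXB4 and HOXB5, of more caudal levels, had 4 and 5 UMIs, close to the counting limit. At the other end, OTX2 (forebrain and midbrain) had no UMI, against 26.8 CPM in NEFM/MSX2 cells, and EN2 (midbrain and hindbrain border) had 20.2 CPM, against 2.21 CPM. Of 35 hindbrain and spinal cord factors 6 reached 10 CPM and 5 of them, HOXA2, HOXA3, HOXB2 and HOXB3 among them, were higher than in other kept cells, with none lower and a median log2 ratio of 3.30. Of 28 forebrain and midbrain factors 5 reached 10 CPM and all 5 (EN2, LHX2, LHX9, BARHL1 and BARHL2) were higher, with a median of 3.66. Over NEFM/MSX2 cells the same 5 were higher, and OTX2 and EMX2 lower. No UMI fell on 22 of the 28 forebrain and midbrain factors or on 19 of the 35 hindbrain and spinal cord factors in HES6/DLL3-high cells. LHX2, LHX9, BARHL1 and BARHL2 return in the next paragraph among genes linked to ATOH1, so the forebrain and midbrain list does not mark 1 region only. By summed level the hindbrain and spinal cord list had 1191 CPM in HES6/DLL3-high cells, against 162 CPM in NEFM/MSX2 cells, and the forebrain and midbrain list 244 CPM, against 65.0 CPM.

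Besides ATOH1, the cells held genes known from the rhombic lip, the dorsal edge of the hindbrain where ATOH1 neurons arise. OLIG3, a factor of dorsal progenitors, had 249 CPM (213 to 289) in HES6/DLL3-high cells, against 8.73 CPM in NEFM/MSX2 cells. BARHL1, known in mice as a target of ATOH1, had 108 CPM (85.3 to 136), against 0.210 CPM, and BARHL2 had 17.3 CPM, against 0.105 CPM. LHX9 and LHX2, factors of dorsal interneurons born from ATOH1 progenitors in the mouse, had 76.6 CPM and 20.2 CPM, against 2.00 CPM and 1.79 CPM. LHX9 had a UMI in 30 cells, of which 25 also had ATOH1, a share like that of ATOH1 among all cells (90 of 110). Roof plate and dorsal border genes went different ways. LMX1A, of the roof plate, had no UMI, and MSX1 had 23.1 CPM in HES6/DLL3-high cells, against 663 CPM in NEFM/MSX2 cells. PAX3, a factor of the dorsal tube and of crest and melanocytes, had 134 CPM with a UMI in 46.4% of the cells, against 17.9 CPM in NEFM/MSX2 cells and 128 CPM in pigment cells.

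Dorsal factors as a list also went both ways, with a lower sum than in the NEFM/MSX2 cells. Of 27 dorsal neural tube factors, 15 reached 10 CPM in the comparison with other kept cells, where 8 were higher and 2 lower. Against NEFM/MSX2 cells 16 reached it, 3 (PAX3, IRX2 and IRX5) were higher and 7 lower, with a median log2 ratio of -0.34, and the list summed to 900 CPM, against 2102 CPM. Without MSX2, ZIC1 and ZIC2, which the rule used, 3 of 13 were higher and 6 lower, the median was 0.17 and the sum 463 CPM, against 1203 CPM. ZIC1 and ZIC2 had 192 CPM and 169 CPM, against 290 CPM and 179 CPM. Of 12 ventral factors 1 reached 10 CPM over other kept cells and was within 2-fold.

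**Figure D4:**
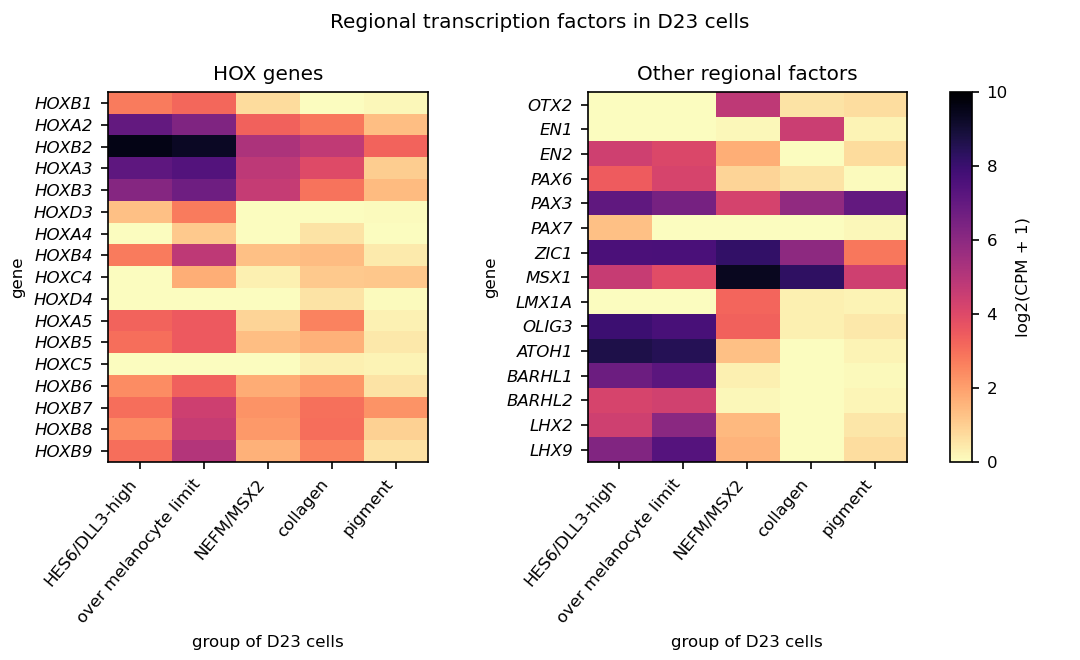
log2(CPM + 1) of HOX genes (left) and other regional factors (right) in 5 groups of D23 cells, darker for higher levels, on 1 scale. HOXB2 (763 CPM), ATOH1 (410 CPM) and OLIG3 (249 CPM) are dark in the HES6/DLL3-high column and in the 145 cells over the melanocyte limit, and OTX2 and MSX1 are darkest in the NEFM/MSX2 column.

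Most neuronal genes were higher, with exceptions among the neurofilament and outgrowth genes. Of 41 genes of the neuronal cytoskeleton and growth cone, 35 reached 10 CPM, and 27 were higher and 5 lower in HES6/DLL3-high than in other kept cells. NEFM, which the rule summed, is 1 of the 5, and without it 27 of 34 were higher and 4 lower. TUBB3, the neuronal tubulin, had 1714 CPM, against 309 CPM, MAP2, a microtubule protein of dendrites, had 445 CPM, against 31.0 CPM, and STMN2, a growth cone protein, had 623 CPM, against 63.4 CPM. The neurofilament genes NEFM and NEFL went the other way, with 150 CPM and 47.7 CPM, against 605 CPM and 204 CPM in other kept cells and 2969 CPM and 828 CPM in NEFM/MSX2 cells, a group that the rule fills with cells rich in NEFM. INA, another neurofilament protein, of early neurons, was higher, with 66.5 CPM, against 3.13 CPM in other kept cells. L1CAM, an adhesion protein of growing axons, had 14.5 CPM, against 60.4 CPM in other kept cells and 12.9 CPM in NEFM/MSX2 cells. GAP43, a growth cone protein, had 103 CPM, against 74.6 CPM and 277 CPM in those groups.

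Of 23 neuronal RNA-binding and splicing factors 22 reached 10 CPM, 17 were higher and none lower, with a median log2 ratio of 3.02. SRRM4, which drives neural microexon splicing, had 158 CPM, against 5.82 CPM in other kept cells, and NOVA1 had 422 CPM, against 33.3 CPM. REST, the repressor of neuronal genes in other tissues and a target of SRRM4 splicing, had 26.0 CPM, against 57.7 CPM. Of 42 synaptic and secretory vesicle genes 21 reached 10 CPM, with 17 higher and 1 lower. SNAP25, of vesicle fusion, had 54.9 CPM, against 4.33 CPM, and SLC17A6, the vesicular glutamate transporter, had 7 UMIs in 6 cells. Another 15 of the 42 synaptic genes had no UMI at all.

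Of 43 axon guidance genes 29 reached 10 CPM, 16 higher and 5 lower than in other kept cells. Over all genes in that comparison 14.6% were higher and 17.4% lower. Against NEFM/MSX2 cells 33 axon guidance genes reached 10 CPM, 14 higher and 10 lower. DCC, the netrin receptor, had 234 CPM (199 to 273) in HES6/DLL3-high cells, against 9.50 CPM in other kept cells. ROBO3, needed for axons to cross the midline, had 2 UMIs. Of 20 genes that handle retinoic acid 10 reached 10 CPM, 4 higher and 3 lower. CYP26A1, which degrades retinoic acid, had 21.7 CPM, against 0.590 CPM, whereas CRABP2 had 18.8 CPM, against 85.1 CPM. CRABP1, which the rule summed, is 1 of the 4 higher genes, and without it 3 of 9 were higher and 3 lower. Over NEFM/MSX2 cells 3 of 8 were then higher and 2 lower, with a median log2 ratio of 0.03.

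The 20 lowest ratios over other kept cells were led by TYRP1, CD109, ERBB3, MLANA, ANXA4 and MITF, mostly genes of the pigment cells that make up 67.4% of the kept cells, and the rule used MLANA, DCT, TYRP1 and PMEL. TYRP1, ERBB3 (a neuregulin receptor of crest derivatives), CD109 and ANXA4 had no UMI in HES6/DLL3-high cells. Even at the limit of 3 UMIs, TYRP1 was at least 32.0-fold and ERBB3 at least 16.7-fold lower than in other kept cells. Of 17 melanocyte genes that reached 10 CPM 16 were lower and none higher (12 of 13 without the 4 genes of the rule), and of 23 neural crest genes 19 were lower and 2 (ID3 and NGFR) higher. Without MSX2, which the rule used, 19 of 22 neural crest genes were lower. SOX10, the factor shared by crest cells, glia and melanocytes, had 2 UMIs in the 110 cells, and TWIST1 had none.

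Against the NEFM/MSX2 cells the lowest genes were of another kind. STC1, TM4SF1, RSPO3, TWIST1 and CCK had no UMI in HES6/DLL3-high cells, against 133, 93.8, 85.5, 73.4 and 68.5 CPM in NEFM/MSX2 cells, so that at the limit of 3 UMIs they were at least 30.6-, 21.6-, 19.7-, 16.9- and 15.8-fold lower. STC1 encodes a secreted hormone, RSPO3 a Wnt enhancer and CCK a neuropeptide. Of 5 melanocyte genes that reached 10 CPM in this comparison MLPH was lower (1 UMI, against 30.1 CPM), while DCT (10.1 CPM from 7 UMIs, against 3.68 CPM) and PMEL, both limited by the rule, were higher. PMEL had 218 CPM (185 to 256) in HES6/DLL3-high cells, with a UMI in 83 of them, against 52.2 CPM in NEFM/MSX2 cells and 1715 CPM in pigment cells. Its share at 3000 UMIs per cell was 57.4% (47.5% to 66.9%), against 15.1% and 97.8%. DCT and MLANA had 7 and 3 UMIs beside the 151 of PMEL, whereas in pigment cells DCT stood at 923 CPM and MLANA at 533 CPM beside the 1715 CPM of PMEL. The ratio of PMEL to the other pigment genes in the HES6/DLL3-high cells was therefore not that of the pigment cells, and the source of the PMEL counts was not tested.

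Among themselves the HES6/DLL3-high cells differed in cell cycle and neuronal genes, among others. Of 52 mitosis genes, 19 were higher and none lower than in other kept cells (median log2 ratio 0.89). Of 34 replication genes at 10 CPM, 2 were higher and 3 lower (0.19). These ratios compare summed groups. Per cell, on the scale of the rule, the mitosis genes had a median sum of 18.9 in HES6/DLL3-high cells. This was below the 20.0 of pigment cells and above the 13.2 of NEFM/MSX2 cells and 14.9 of collagen cells. Cells that met the HES6 and DLL3 minimum but were over the melanocyte limit had 15.7. By this median the HES6/DLL3-high cells were thus not above the pigment cells. Clustering of the 110 cells gave 3 clusters of 62, 26 and 22 cells, which are numbered here and not given cell type names. Their leading genes describe the clustering and are no findings.

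Cluster 1 (62 cells, median 5164 UMIs) was led by KIF5A, POU2F2, SNCG, AKR1C1 and PCDH9, of which KIF5A is an axonal motor protein. In cluster 1 STMN2 stood at 1181 CPM and DCX at 807 CPM, against 211 CPM and 169 CPM in cluster 2 and 39.3 CPM and 216 CPM in cluster 3. LHX9 had 143 CPM in cluster 1, against 22.9 CPM in cluster 2 and 13.1 CPM in cluster 3, and MFNG had 125 CPM, 9.16 CPM and 91.7 CPM in clusters 1, 2 and 3. The 52 mitosis genes summed to 1552 CPM in cluster 1, and TOP2A had 15.6 CPM. Cluster 1 thus joined high neuronal levels to few mitosis transcripts.

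Cluster 2 (26 cells, median 8425 UMIs) was led by the histone and division genes HIST1H3B, KIF14, FBXO5, DEPDC1B and HIST1H2AJ. Its mitosis genes summed to 19696 CPM and TOP2A, the topoisomerase of dividing cells, had 1740 CPM. DLL1 had 133 CPM in cluster 2, against 18.7 CPM in cluster 1 and 52.4 CPM in cluster 3. ATOH1 was at 421 CPM, against 496 CPM in cluster 1 and 216 CPM in cluster 3, and GADD45G at 1163 CPM, against 352 CPM and 976 CPM. Cluster 2 thus held ATOH1 and GADD45G beside its mitosis genes. TOP2A and STMN2 were seen together in 13 cells, TOP2A alone in 26 and STMN2 alone in 48.

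Cluster 3 (22 cells, median 5607 UMIs) was led by IGFBP7, COL8A1, COL1A1, SNAI2 and MSX1, genes of mesenchyme and neural crest. The 23 mesenchyme genes summed to 1834 CPM in cluster 3, against 502 CPM in cluster 1 and 444 CPM in cluster 2, and to 14998 CPM in collagen cells. NEFM had 458 CPM in cluster 3, against 71.7 CPM and 50.4 CPM in clusters 1 and 2. Of its 22 cells 1 was marked as a doublet, and in all 110 cells COL1A1 was seen in 10 and IGFBP7 in 4. How far RNA of collagen cells or doublets added to this cluster was not tested. INSM1 (347 CPM) and HOXB2 (720 CPM) were high in cluster 3 too.

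**Figure D5:**
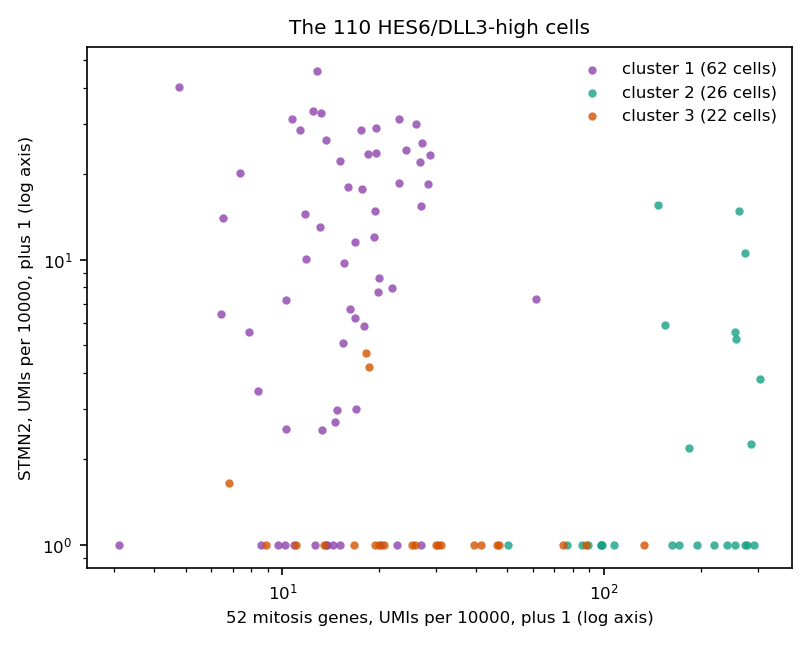
Each point is 1 of the 110 HES6/DLL3-high cells, with the sum of 52 mitosis genes (x) against STMN2 (y), in UMIs per 10000 plus 1 on log axes, coloured by cluster. The 62 cells of cluster 1 have low mitosis sums (median 14.3) and most of the STMN2, and the 26 cells of cluster 2 have high mitosis sums (median 188).

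Single cells spread widely. HES6 ranged from 8.73 to 140 UMIs per 10000 (median 61.4) with no cell at 0, ATOH1 from 0 to 17.3 (median 3.76, 20 cells at 0), DCX from 0 to 52.0 (median 3.91, 22 at 0) and STMN2 from 0 to 45.0 (median 1.83, 49 at 0). DCX and ATOH1, which are often thought of as marks of later and earlier steps, had UMIs together in 74 of the 110 cells, with 90 for ATOH1 and 88 for DCX in all. SOX2 and ELAVL3, of progenitors and neurons, were seen together in 66, with 85 for SOX2 and 87 for ELAVL3.

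The 145 cells over the melanocyte limit shared this program. They had 642 CPM of INSM1, 362 CPM of ATOH1, 202 CPM of OLIG3 and 629 CPM of HOXB2, against 549, 410, 249 and 763 CPM in the 110 cells. The neuronal genes stood higher in them, with 1115 CPM of STMN2 and 164 CPM of LHX9, against 623 CPM and 76.6 CPM, and the mitosis genes lower, with 3762 CPM, against 7776 CPM. PMEL had 994 CPM in the 145 cells, against 218 CPM in the 110 cells, a difference the limit itself sets.

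The later libraries had almost no such cells. D32 had 1 of 6023 kept cells (0.0166%) and D44 0 of 5811, which allows a share of up to 0.0516% (3 cells) and has an exact 95% upper limit of 0.0635%. The D32 cell, from an induction the choice of genes did not use, had 13865 UMIs, of which 180 were HES6, 13 DLL3 and 843 CRABP1. It also held 17 UMIs of ATOH1, 12 of INSM1, 37 of HOXB2, 55 of TAGLN3, 20 of SSTR2 and 3 of OLIG3, and none of TOP2A. ATOH1 in this cell came to 1226 CPM (714 to 1963), against 0.0332 CPM in the other kept D32 cells. A single UMI in this cell is 72.1 CPM, so that any gene seen in it has a high CPM, and the rule picked the cell by HES6 and DLL3. Kept D32 and D44 cells were deeper, with medians of 36375 and 42940 UMIs, against 12574 in D23. The cell filter of D32 and D44 required 3000 genes, more than the median of 2210 genes in the D23 HES6/DLL3-high cells. With the gene minimum of D23 instead, an alternative chosen after seeing the data, the rule again found 1 cell of 6397 in D32 and 0 of 5998 in D44.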

How the data were processed

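The libraries were cryopreserved cells prepared at BGI. The authors deposited raw UMI counts, not normalized, from Cell Ranger 6.1.2 on hg38 (GRCh38), with no cell annotation, and the study's cell filter was applied here: under 10% mitochondrial UMIs, 1000 to 7000 genes and 500 to 50000 UMIs in D23, 3000 to 9000 genes and 500 to 100000 UMIs in D32 and D44. The annotation release is not given in the sources used here, and gene positions are those of GENCODE for the same identifiers. The HES6/DLL3-high cells and the gene lists were chosen with earlier results of these data known.

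UMIs were summed per group of cells and scaled to CPM. Ratios used 1 CPM added, genes of at least 10 CPM in either group and a 2-fold limit. With 1 library per time point no test was made, and intervals (exact Poisson, exact binomial) cover counting error only. The ratio and its interval were tested on simulated counts with known folds. Genes named are those of the rule and the lists, the 20 highest and 20 lowest ratios over other kept cells, 10 each over NEFM/MSX2 cells (at 50 CPM or more) and the 5 leading genes of each cluster, and KRT20, POU4F3 and GFI1 were looked up after the values had been seen. A few genes of the lists are not reported here. Doublets were scored with Scrublet in Scanpy 1.11.5 (30 components), taking the top 4.47% of scores, since its automatic limit marked 56 cells, and were kept. Clusters were Leiden clusters of 2000 variable genes, 20 components, 15 neighbours, resolution 0.5 and seed 1, in igraph 0.11.9. Python 3.11.15, numpy 2.4.6, scipy 1.17.1 and pandas 2.3.3 were used.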

Additional observations from a re-analysis of the deposited data

How the results depend on the processing

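No paired analysis was possible because each time point has 1 library. The share of HES6/DLL3-high cells (2.90%) stayed within its interval with a HES6 plus DLL3 minimum of 5 or 20, with at least 3 UMIs of both together or 1 of each, without called doublets and with cells thinned to 3000 UMIs. It was 3.58% with a mitochondrial limit of 5% and 2.04% among cells of at least 5000 UMIs. Chosen after seeing the data, it was 6.72% with no limit on melanocyte genes and 2.32% without cluster 3.

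The counts of genes past 2-fold were 1436 higher and 1715 lower over other kept cells, and 1433 and 1509 over NEFM/MSX2 cells. With no filter on low values they were 3059 and 3255, and 2993 and 3243, with a 50 CPM filter 535 and 564, and 541 and 465, and with 10 CPM added 856 and 1016, and 846 and 860. The other alternatives kept them within 1.5 times. Scaled without mitochondrial and ribosomal protein genes, the median log2 ratio of all genes was -0.11 over other kept cells and -0.08 over NEFM/MSX2 cells.

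Some named genes changed direction or came within the 2-fold limit. Thinned to 3000 UMIs, the log2 ratio of DCT over NEFM/MSX2 cells was -0.060, against 1.25. With no limit on melanocyte genes, MITF was 2.05 and ERBB3 1.58 over NEFM/MSX2 cells, against -1.09 and -1.82. COL8A1 over NEFM/MSX2 cells was -0.56 with a HES6 plus DLL3 minimum of 20 and -1.58 without cluster 3, against 2.37. Over other kept cells RSPO3 was -0.65 with a minimum of 5, against -4.27. With the 145 cells counted in, TOP2A was at 0.98 over other kept cells, against 1.61. With 691881 UMIs in the 110 cells, genes under 4.34 CPM could not be told from 0.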

Other observations

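All 255 D23 cells that met the HES6 and DLL3 minimum, with and without pigment transcripts, were also clustered together, a step added after the values had been seen, and gave 6 clusters of 107, 76, 26, 25, 13 and 8 cells. Cells of the 110 and of the 145 were found in each of them. The leading genes below define the clusters and are descriptions. A cluster of 76 cells was led by LHX2 (170 CPM, against 4.22 CPM in the remaining cells), TRH (157 CPM, against 4.22 CPM), the ATP receptor gene P2RX3 (52.4 CPM, against 0.843 CPM) and the glutamate transporter gene SLC17A6 (52.4 CPM, against 1.69 CPM). LHX9 had 348 CPM in it, against 54.0 CPM, BARHL1 280 CPM, against 80.1 CPM, and ATOH1 382 CPM, against 384 CPM. The TRH counts came from 15 of the 76 cells.

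A cluster of 13 cells, 4 of them among the 110, lacked most ATOH1 (25.3 CPM in 1 cell, against 402 CPM in the remaining cells). TLX3, a factor of other dorsal neurons, had 164 CPM, against 1.34 CPM, TFAP2B 468 CPM, against 10.1 CPM, and OLIG1 139 CPM, against 1.34 CPM. TH, the first enzyme of catecholamine synthesis, had 278 CPM from 22 UMIs in 4 cells, and SST, a peptide hormone gene, 316 CPM from 25 UMIs in 3 cells. BARHL1 and LHX2 had no UMI, and CRABP1 was as high as in the remaining cells, with 41697 CPM, against 37648 CPM.

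A cluster of 8 cells, 1 of them among the 110, had a median depth of 16016 UMIs and held DCT (1601 CPM, against 10.4 CPM), TYRP1 (436 CPM, against 6.24 CPM, from 2 cells) and SOX10 (127 CPM, against 1.39 CPM) beside ATOH1 (182 CPM, against 401 CPM), which had a UMI in all 8. Whether these are doublets was not tested beyond the score above.

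In D32 and D44, 33 and 50 cells met the HES6 and DLL3 minimum over the melanocyte limit. DCX had no UMI in either set, and ATOH1 had 4 UMIs in 1 D32 cell and none in D44. CRABP1 had 841 UMIs in the 33 D32 cells, of which 571 lay in 1 cell, and none in the 50 D44 cells.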
